A study of Mus musculus with 4 samples.

Results

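The genes described here encode the DNA polymerases that copy the nuclear genome and the proteins that work beside them at the replication fork. They are 34 named mouse genes out of 17104 genes in the expression table, and each of the 34 had a row. The choice was made from a list by symbol, with no cut on a measured value but with earlier results of these data known. They were measured in leukemic stem cells (LSCs), defined as YFP+, c-kit+ bone marrow cells, sorted at week 6 of a secondary transplantation of MLL-AF9 leukemia. The comparison asked how the transcriptome of LSCs differed after loss of CD37, a tetraspanin of the leukocyte surface.

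Both groups came from lineage-negative bone marrow of Rosa26-CreERT2; Cd37 fl/fl mice, infected with a retrovirus carrying MLL-AF9 and YFP. Both therefore carried the floxed Cd37 allele, the inducible Cre, which is driven from the ubiquitous Rosa26 locus, and the fusion oncogene. Recipients of the CD37 fl/fl group had been given corn oil (the sample titles call these libraries wild type, the genotype label CD37 fl/fl). Recipients of the CD37 -/- group had been given tamoxifen, which activates Cre. LSCs were then passed on into sublethally irradiated male C57 mice together with supporting bone marrow cells, so the hosts kept normal hematopoietic cells. Each group had 2 libraries. Whether a library came from 1 mouse or from a pool was not stated, so p-values measure the spread between these libraries, which may be technical.

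At a replication fork, polymerase alpha-primase lays down short RNA-DNA primers, polymerase epsilon extends the leading strand and polymerase delta extends the lagging strand. The RFC complex loads the ring-shaped clamp PCNA, which holds the polymerases on DNA, and RPA covers the exposed single strands. FEN1, DNA2 and LIG1 trim and join the Okazaki fragments of the lagging strand, RNase H enzymes remove RNA from DNA, CAF-1 places histones on the new DNA, and the TIMELESS-TIPIN pair keeps the helicase and the polymerases together. Many of these genes are transcribed in late G1 and S phase under E2F factors, and leukemia cells in cycle express them at high levels.

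Expression was measured as FPKM, fragments per kilobase scaled to library depth, where the kilobases were those of the whole gene span, introns included. A gene with long introns therefore had a low FPKM for its reads. Dividing this out gave whole reads within 0.05 for 98.8% of genes in every library, where chance gives 10%, and the recovered reads summed to between 15139063 and 22562837 per library. Cd37, the deleted gene, was at 56.6 and 46.8 FPKM in CD37 fl/fl and at 23.2 and 22.9 FPKM in CD37 -/- LSCs, or 44.6% of the CD37 fl/fl mean. The floxed stretch of the allele holds only some of the exons, so reads of the other exons can remain after deletion. The FPKM of the whole gene therefore does not give the share of cells with the deletion. Of 5 measured identity markers, the MLL-AF9 target Hoxa9 was between 38.8 and 47.2 FPKM in all 4 libraries. Another 3 were higher in both CD37 -/- libraries and 1 was lower, beside 38.2% and 23.7% of all tested genes. The higher ones were Ptprc (CD45) and the MLL-AF9 target Meis1, at 293% and 160% of the CD37 fl/fl mean, and Kit, the gene of the sorting marker c-kit. Kit has a long gene span and was at 0.170 and 0.3245 against 0.3266 and 0.434 FPKM, so its groups barely parted. The lower one was Mpo, the granule enzyme of myeloid progenitors, at 80.3 and 51.6 against 34.4 and 20.8 FPKM. Markers of other cells also differed between libraries. The 7 measured erythroid markers, none of them at 0, were all higher in both CD37 -/- libraries, with summed FPKM of 61.0 and 5.17 against 576 and 143. The 8 dendritic cell and macrophage markers, none of them at 0, summed to 275.5 in CD37 fl/fl replicate 1 against 36.1 in CD37 fl/fl replicate 2, and to 14.5 and 52.2 in the CD37 -/- libraries. Summed B cell markers (4 measured, none at 0) were 12.8 and 15.4 in CD37 fl/fl against 8.46 and 6.64 in CD37 -/- libraries. Singly, 2 of the 4 were higher in both CD37 -/- libraries and 1 was lower. The part of these cells in the values below was not tested.

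Promoter sequence was examined first, because E2F sites are a known feature of this gene class. RefSeq promoter windows on GRCm38.p6, from 250 bases before to 50 bases after the start, were found for 28 of the 34 genes; Prim2, Pole, Rfc2, Rnaseh1, Rnaseh2b and Tipin had no entry. Searched on both strands for the E2F cores TTTCGCG, or the letters TTTGGCG, or the letters TTCCCGC, or the letters TTCGCGC, 18 of the 28 (64.3%) held at least 1, beside 17.5% of 4690 tested genes and 8.81% of all 27025 genes with a window. In the bases before the start alone these shares were 35.7%, 14.7% and 7.40%. CCAAT, the letters of the NF-Y box, was in 42.9% of the member windows, close to the 43.4% of tested genes and 41.1% of all genes. The stretches below are shown because they hold several matches (Pola1, Chaf1a), join an E2F core to a CCAAT or to a second core (Prim1, Rfc3), or belong to genes whose expression values are set out further on (Pcna, Pold4, Rnaseh2a). Capitals mark the matches, and a core or box read on the other strand (GCGGGAA for the third core, CGCCAAA for the second core, ATTGG for the NF-Y box) counts as a match; neighbouring matches can overlap. They run 5′ to 3′ on the strand of the gene: Pola1 from chrX:93632259-93632335 (minus), Chaf1a from chr17:56040324-56040390 (plus), Prim1 from chr10:128015189-128015214 (plus), Rfc3 from chr5:151651209-151651229 (minus), Pcna from chr2:132253252-132253278 (minus), Pold4 from chr19:4231817-4231843 (plus) and Rnaseh2a from chr8:84966077-84966100 (minus).
Pola1: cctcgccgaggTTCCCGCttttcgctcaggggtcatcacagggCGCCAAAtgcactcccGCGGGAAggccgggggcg
Chaf1a: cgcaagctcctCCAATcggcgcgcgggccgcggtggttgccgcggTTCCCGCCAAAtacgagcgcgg
Prim1: ggcctgtcttgTTCCCGCCAATtctc
Rfc3: acgtcgcacgcTTTCGCGCtc
Pcna: ccacgggtacgATTGGtccttgaggag
Pold4: tgccgattgccATTGGctagaattaag
Rnaseh2a: cctgcgagccgATTGGtcagcatc

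The Pola1 and Chaf1a stretches lie upstream of the annotated exons, as does that of Pold4. Those of Prim1, Rfc3, Pcna and Rnaseh2a lie inside exons of longer annotated transcripts, since RefSeq and GENCODE place the start differently. A match is a description of letters and does not show that a factor binds there.

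By limma with Benjamini-Hochberg adjustment, 0 of the 31 members whose FPKM averaged 1 or more passed an adjusted p of 0.05, as did 0 of the 6761 genes tested (0%). The same fit gave 1626 genes at an unadjusted p under 0.05, and limma-voom, fitted to recovered reads from 13056 genes, gave 0 genes (0%) by adjusted p and 3309 by unadjusted p. At an unadjusted p under 0.05, 7 members were higher in CD37 -/- LSCs (22.6% of 31, beside 16.1% of all tested genes) and 4 were lower (12.9%, beside 7.96%). Together these were 11 members (35.5%), beside 24.0% of all tested genes. The higher ones were the clamp Pcna, the large clamp loader subunit Rfc1, the nucleases Fen1 and Dna2, the CAF-1 subunit Chaf1a, and the fork proteins Wdhd1 and Timeless. The lower ones were the small polymerase subunit Pold4, the loader subunit Rfc2, the mitochondrial protein Ssbp1 and the RNase H2 catalytic subunit Rnaseh2a. The median log2 fold change of the members was 0.10, against 0.11 for all tested genes. In bulk RNA, fewer cells of a type and less RNA per cell cannot be told apart.

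Pola1, Prim2 and Pole2 were under the FPKM filter, and were read from the fit on recovered reads, which held all 34 members. There 8 members were higher at an unadjusted p under 0.05 (23.5%, beside 19.3% of all genes in that fit), namely the 7 above and Pola1. The 4 lower ones (11.8%, beside 6.08%) were those of the FPKM fit, which makes 12 in either direction (35.3%, beside 25.3%). The median of the 34 log2 fold changes was 0.14, against 0.26 for all genes. Counting groups that did not overlap in FPKM, 11 of 31 members were higher in both CD37 -/- libraries (35.5%, beside 38.2% of tested genes) and 8 were lower (25.8%, beside 23.7%), in all 61.3%, beside 61.9%. No exact permutation test of 2 against 2 libraries can give a two-sided p under 0.333.

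**Figure D1:**
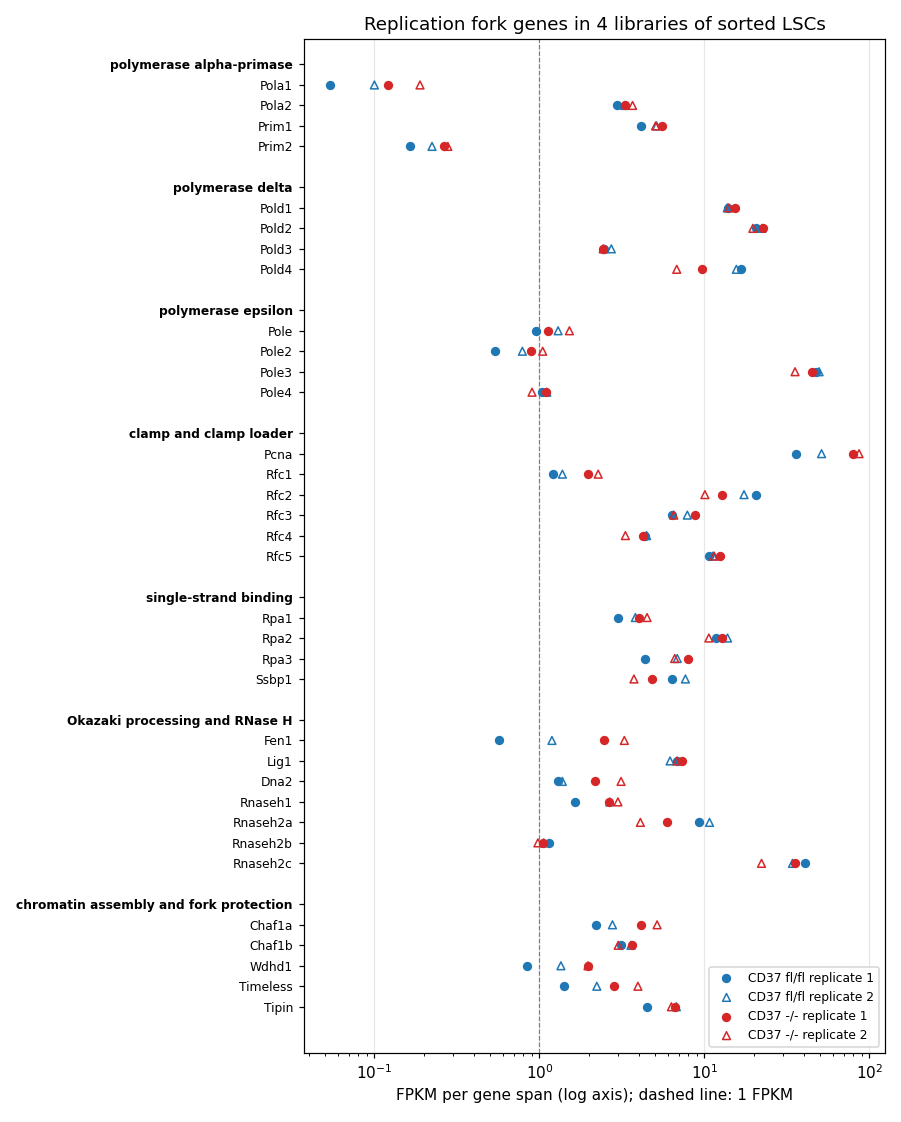
FPKM (log axis) of the 34 genes in the 4 libraries, grouped by role; blue symbols are CD37 fl/fl, red symbols CD37 -/-, and the dashed line marks 1 FPKM. Pcna, Fen1, Dna2 and Chaf1a have both red symbols to the right of both blue ones, Pold4, Rfc2, Ssbp1 and Rnaseh2a have them to the left, and Pola1 and Prim2 lie far below 1 FPKM in every library.

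Gene positions below are those of GRCm38 (GENCODE M21). Polymerase alpha-primase starts every new strand. Pola1 (ENSMUSG00000006678, chrX:93304767-93632155, minus strand), its catalytic subunit, had 270 and 567 reads in CD37 fl/fl against 707 and 1399 reads in CD37 -/- LSCs, which over a gene span of 327389 bases came to an FPKM of 0.0538 and 0.0999, against 0.122 and 0.189. Both CD37 -/- libraries were above both CD37 fl/fl libraries, with a log2 fold change of 1.04 (standard error 0.38, 95% confidence interval 0.17 to 1.91) on reads, and an unadjusted p of 0.0241. The adjusted p of Pola1 was 0.142 by limma-voom with Benjamini-Hochberg adjustment, and 0.322 by limma on log2(FPKM + 1) with no filter. The fold change was 0.61 without CD37 fl/fl replicate 1 and 0.72 without CD37 -/- replicate 2, and both then had an unadjusted p over 0.05. On log2(FPKM + 1) with no filter it was 0.10, also with an unadjusted p over 0.05. Prim1 (ENSMUSG00000025395, chr10:128015168-128030037, plus strand), the catalytic primase subunit, had an FPKM of 4.15 and 5.14 in CD37 fl/fl and of 5.50 and 5.06 in CD37 -/- LSCs. These values overlapped, with a log2 fold change of 0.16 (95% confidence interval -0.32 to 0.64). Pola2, the regulatory subunit, had a log2 fold change of 0.12 (interval -0.31 to 0.56) on FPKM. Prim2, the large primase subunit, had between 547 and 1361 reads and a log2 fold change of 0.49 (interval -0.13 to 1.11) on reads.

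Polymerase delta was described by its 4 subunits, of which the smallest, Pold4, had an unadjusted p under 0.05. Pold1 (ENSMUSG00000038644, chr7:44532746-44548849, minus strand), the catalytic subunit, had an FPKM of 13.96 and 13.76 in CD37 fl/fl and of 15.25 and 14.06 in CD37 -/- LSCs, with a log2 fold change of 0.07 (95% confidence interval -0.44 to 0.59). Pold2, which bridges the other subunits, and Pold3, which contacts PCNA, had log2 fold changes of -0.02 (interval -0.59 to 0.54) and -0.06 (interval -0.47 to 0.35). Pold4 (ENSMUSG00000024854, chr19:4231899-4233634, plus strand), the accessory subunit that is degraded in cells after DNA damage, had an FPKM of 16.6 and 15.6 in CD37 fl/fl and of 9.71 and 6.80 in CD37 -/- LSCs. Its CD37 -/- mean of 8.25 ± 2.06 (SD, n = 2) was 51.3% of the CD37 fl/fl mean of 16.1 ± 0.671 (SD, n = 2). The groups did not overlap, and on the log2 scale the fold change was -0.90 (standard error 0.24), with an unadjusted p of 0.0107 and a Benjamini-Hochberg adjusted limma p of 0.132. Pold4 rested on 267 to 470 reads per library. In the annotation 71.1% of its exon bases lie under a readthrough gene on the same strand, AC109138.7, so the reads of both could be split by counting. Without CD37 -/- replicate 2 the log2 fold change of Pold4 was -0.67, with an unadjusted p over 0.05.

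Polymerase epsilon gave 0 subunits at an unadjusted p under 0.05 in either fit. Pole (ENSMUSG00000007080, chr5:110286306-110337474, plus strand), the catalytic subunit, had an FPKM of 0.959 and 1.30 in CD37 fl/fl and of 1.13 and 1.52 in CD37 -/- LSCs. These overlapped, with a log2 fold change of 0.13 (95% confidence interval -0.34 to 0.59). Pole2, the second subunit of the holoenzyme, had between 218 and 626 reads and a log2 fold change of 0.56 (interval -0.20 to 1.33) on reads. The histone-fold subunits Pole3 and Pole4 had log2 fold changes of -0.27 (interval -0.91 to 0.36) and -0.05 (interval -0.46 to 0.35) on FPKM. Of the 4 catalytic subunits of the fork, Pold1, Pole and Prim1 thus had intervals that held 0 in the FPKM fit, and Pola1 had one above 0 in the fit on reads.

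The clamp and its loader held members on both sides. Pcna (ENSMUSG00000027342, chr2:132249162-132253314, minus strand) had an FPKM of 35.8 and 51.3 in CD37 fl/fl LSCs (SD 11, n = 2), and of 80.0 and 86.6 in CD37 -/- LSCs (SD 4.63, n = 2). The CD37 -/- mean was 1.91 times the CD37 fl/fl mean, with a log2 fold change of 0.94 (standard error 0.29), an unadjusted p of 0.0177 and a Benjamini-Hochberg adjusted limma p of 0.147. Pcna had 2276 to 8134 reads per library and shares 19.1% of its 50-base stretches with the pseudogene Pcna-ps2, which was itself higher by 0.64 on the log2 scale, so reads could have passed between both entries. Its fold change was 0.69 without CD37 fl/fl replicate 1 and 0.89 without CD37 -/- replicate 2, with an unadjusted p over 0.05 in both cases.

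Rfc1 (ENSMUSG00000029191, chr5:65261850-65335670, minus strand), the large subunit that opens the clamp, had an FPKM of 1.20 and 1.38 in CD37 fl/fl and of 1.98 and 2.27 in CD37 -/- LSCs. The groups did not overlap, with a log2 fold change of 0.45 (standard error 0.17) and a Benjamini-Hochberg adjusted limma p of 0.188. Rfc1 was past an unadjusted p of 0.05 in 5 of 13 alternatives, and leaving out any 1 library took it over that limit, with fold changes between 0.38 and 0.51, as did quantile normalization (0.24), upper quartile scaling (0.33), no trend and the replicate block (both 0.45). Rfc2 (ENSMUSG00000023104, chr5:134581366-134601805, plus strand), a small subunit, lay on the other side of 0, with an FPKM of 20.6 and 17.4 in CD37 fl/fl and of 12.7 and 10.1 in CD37 -/- LSCs. On the log2 scale the change was -0.69 (standard error 0.24), and its Benjamini-Hochberg adjusted limma p 0.165. Without CD37 fl/fl replicate 1 it was -0.58, without CD37 -/- replicate 2 it was -0.54, and after rescaling every library to the same sum of FPKM (TPM rescaling, with all tested genes then at a median of 0.40) it was -0.34, each with an unadjusted p over 0.05. In the annotation 28.3% of the Rfc2 exon bases lie under Lat2 on the other strand, which had a log2 fold change of -0.79. Rfc3, Rfc4 and Rfc5, the other small subunits, had log2 fold changes of 0.08, -0.19 and 0.11, and their intervals held 0.

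**Figure D2:**
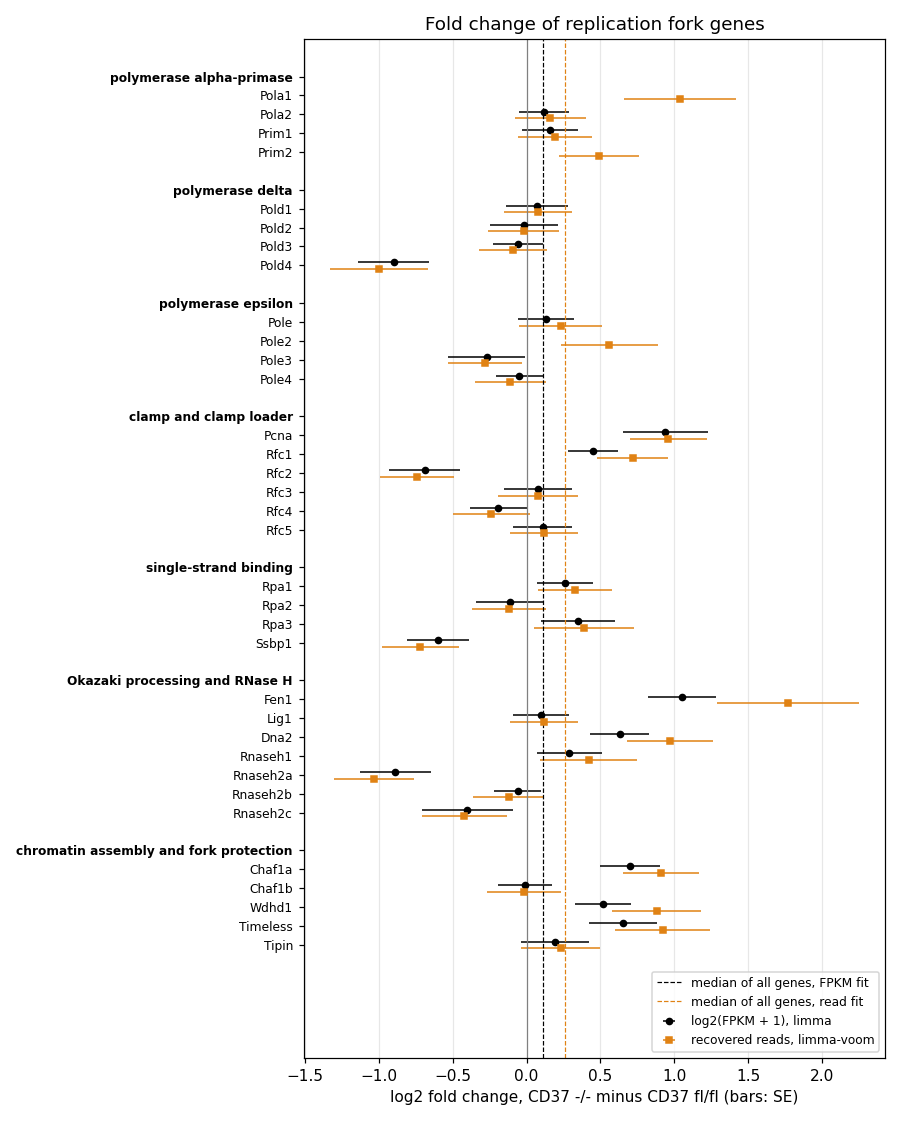
Log2 fold change (CD37 -/- minus CD37 fl/fl) of each gene with its standard error, from log2(FPKM + 1) in limma (black, 31 genes) and from recovered reads in limma-voom (orange, 34 genes); dashed lines are the medians of all genes in each fit, 0.11 and 0.26. Fen1 and Pcna lie furthest to the right in the FPKM fit at 1.05 and 0.94, and Pold4 and Rnaseh2a furthest to the left at -0.90 and -0.89.

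Single-strand binding proteins of the nucleus did not pass an unadjusted p of 0.05. Rpa1, Rpa2 and Rpa3, the subunits of RPA, had log2 fold changes of 0.26 (interval -0.22 to 0.73), -0.11 (interval -0.67 to 0.44) and 0.35 (interval -0.28 to 0.98). After TPM rescaling Rpa3 was at 0.68, with an unadjusted p under 0.05. Ssbp1 (ENSMUSG00000029911, chr6:40471352-40484700, plus strand), which binds single strands of mitochondrial DNA, had an FPKM of 6.32 and 7.67 in CD37 fl/fl and of 4.82 and 3.74 in CD37 -/- LSCs. The groups did not overlap, with a log2 fold change of -0.60 (standard error 0.21) and a Benjamini-Hochberg adjusted limma p of 0.171. The Ssbp1 value was -0.48 without CD37 fl/fl replicate 2 and -0.45 without CD37 -/- replicate 2, -0.28 after TPM rescaling and -0.60 with the replicate number as a block, each with an unadjusted p over 0.05. Its pseudogene Gm12115, which shares 1.64% of the gene's 50-base stretches, had a log2 fold change of -0.59.

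Among the enzymes of Okazaki fragments, both nucleases were higher at an unadjusted p under 0.05 and the ligase overlapped between the groups. Fen1 (ENSMUSG00000024742, chr19:10199132-10204169, minus strand), the flap endonuclease, had an FPKM of 0.570 and 1.19 in CD37 fl/fl and of 2.45 and 3.27 in CD37 -/- LSCs, from 44, 104, 219 and 373 reads. The CD37 -/- mean was 3.25 times the CD37 fl/fl mean. The log2 fold change was 1.05 (standard error 0.23) on log2(FPKM + 1) and 1.77 (standard error 0.48) on reads, and its Benjamini-Hochberg adjusted limma p was 0.106. Fen1 was the member that kept an unadjusted p under 0.05 in 13 of 13 alternatives, with fold changes between 0.81 and 1.77. Its CD37 fl/fl mean of 0.881 FPKM was under the filter. Fen1 therefore entered the FPKM fit through its CD37 -/- mean of 2.86 and had to differ there. This was the case for 262 of the 1088 higher genes overall. The other 6 higher members averaged 1 FPKM or more in both groups. With genes that passed through CD37 -/- alone set aside, 6 of 30 members were higher, beside 826 of 6242 tested genes. Fen1 also had the lowest level per exon base of all 34 members in CD37 fl/fl LSCs (1.83 depth-scaled reads per exon kilobase). In the annotation 86.5% of its exon bases lie under Tmem258 and Gm10143 on the other strand, and Tmem258, with 1997 to 2381 reads, was at -0.39 on the log2 scale. Whether the counting used strand was not given in the sources used here, so the reads assigned to Fen1 may be a small part of its transcripts.

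Dna2 (ENSMUSG00000036875, chr10:62947026-62974185, plus strand), the nuclease-helicase that cuts long flaps, had an FPKM of 1.30 and 1.38 in CD37 fl/fl and of 2.18 and 3.12 in CD37 -/- LSCs. Its exons do not lie under another gene. On the log2 scale the fold change was 0.63 (standard error 0.20), with a Benjamini-Hochberg adjusted limma p of 0.150, and 0.97 (standard error 0.29) on reads. Without CD37 -/- replicate 2 it was 0.44, without CD37 fl/fl replicate 1 it was 0.61, without CD37 fl/fl replicate 2 it was 0.66, and after quantile normalization it was 0.43, each with an unadjusted p over 0.05. Lig1, the ligase that seals the fragments, had an FPKM of 6.84 and 6.19 in CD37 fl/fl and of 7.31 and 6.82 in CD37 -/- LSCs, with a log2 fold change of 0.10 (interval -0.37 to 0.57). Lig1 was the member whose recovered reads were not whole, so its reads are approximate.

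RNase H2 removes ribonucleotides that the polymerases leave in DNA. Rnaseh2a (ENSMUSG00000052926, chr8:84956610-84969767, minus strand), its catalytic subunit, had an FPKM of 9.31 and 10.7 in CD37 fl/fl and of 5.95 and 4.09 in CD37 -/- LSCs, so the CD37 -/- mean was 50.1% of the CD37 fl/fl mean. The groups did not overlap, with a log2 fold change of -0.89 (standard error 0.24), an unadjusted p of 0.01 and a Benjamini-Hochberg adjusted limma p of 0.130. Rnaseh2a was at -0.66 without CD37 -/- replicate 2, with an unadjusted p over 0.05. Prdx2, which with Gm49661 covers 20.2% of its exon bases, was at -0.96 on the log2 scale, and 15.0% of the Rnaseh2a exon bases lie under Gm49661 on the same strand. Prdx2 is also abundant in red cells, whose markers were higher in CD37 -/- LSCs, and their part in these values was not tested. The partner subunits Rnaseh2b and Rnaseh2c had log2 fold changes of -0.06 (interval -0.46 to 0.34) and -0.40 (interval -1.16 to 0.35). Kat5, under which 40% of the Rnaseh2c exon bases lie, was at 0.95 on the log2 scale. Rnaseh1, which cuts RNA in longer hybrids, had 0.29 (interval -0.25 to 0.83).

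The chromatin assembly and fork protection genes had the highest median of the role groups, at 0.52 on the log2 scale, with 3 of 5 higher at an unadjusted p under 0.05 and 0 lower, beside a median of 0.11 and shares of 16.1% and 7.96% over all tested genes. Chaf1a (ENSMUSG00000002835, chr17:56040439-56072289, plus strand), the large CAF-1 subunit, had an FPKM of 2.19 and 2.77 in CD37 fl/fl and of 4.13 and 5.17 in CD37 -/- LSCs. The fold change on the log2 scale was 0.70 (standard error 0.20), with a Benjamini-Hochberg adjusted limma p of 0.137. It was 0.58 without CD37 fl/fl replicate 1 and 0.56 without CD37 -/- replicate 2, with an unadjusted p over 0.05 in both cases. Ubxn6, under which 55.2% of the Chaf1a exon bases lie, had 184 to 296 reads and a log2 fold change of 0.12. Chaf1b, the middle CAF-1 subunit, had an FPKM of 3.11 and 3.59 in CD37 fl/fl and of 3.62 and 3.00 in CD37 -/- LSCs, with a log2 fold change of -0.01 (interval -0.47 to 0.44).

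Wdhd1 (ENSMUSG00000037572, chr14:47240944-47276857, minus strand), which ties polymerase alpha to the helicase, had an FPKM of 0.838 and 1.35 in CD37 fl/fl and of 1.97 and 1.97 in CD37 -/- LSCs. The fold change on the log2 scale was 0.52 (standard error 0.19), with a Benjamini-Hochberg adjusted limma p of 0.181. Without CD37 fl/fl replicate 1 it was 0.34, and without CD37 -/- replicate 1 or 2 it was 0.52, each with an unadjusted p over 0.05. Wdhd1 was past that limit in 6 of 13 alternatives, and it also missed it after quantile normalization (0.31), with upper quartile scaling (0.41), and, at 0.52, with no filter or no trend. Timeless (ENSMUSG00000039994, chr10:128232065-128252941, plus strand) had an FPKM of 1.40 and 2.23 in CD37 fl/fl and of 2.84 and 3.95 in CD37 -/- LSCs, with a log2 fold change of 0.65 (standard error 0.23) and a Benjamini-Hochberg adjusted limma p of 0.175. For Timeless the value was 0.43 without CD37 fl/fl replicate 1 and 0.46 without CD37 -/- replicate 2, again with an unadjusted p over 0.05, as it was with quantile normalization (0.46), upper quartile scaling (0.52) and no filter (0.65). Tipin, its partner, overlapped between the groups, at 4.50 and 6.76 against 6.65 and 6.31 FPKM, with a log2 fold change of 0.19 (interval -0.38 to 0.77).

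**Figure D3:**
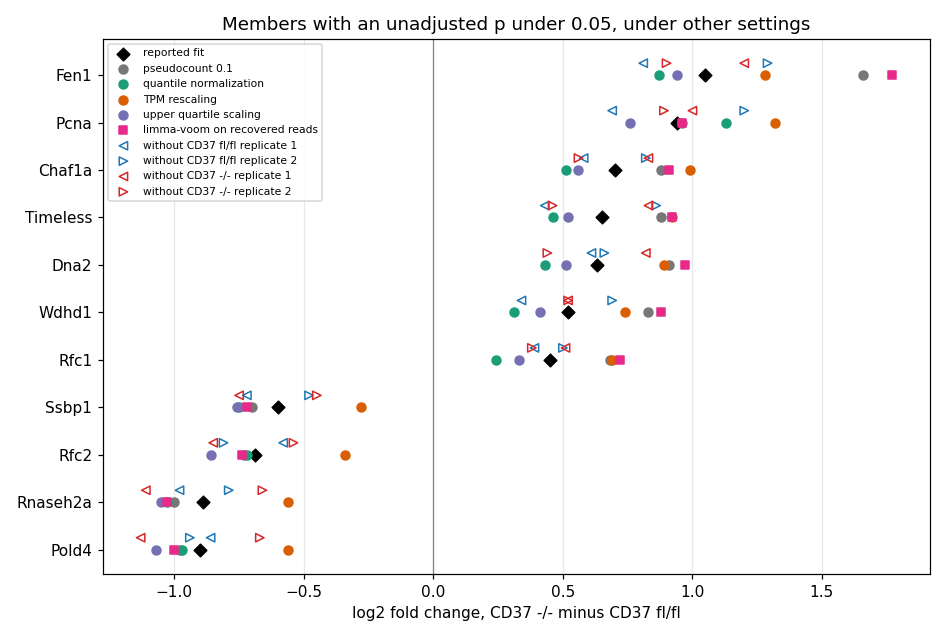
Log2 fold change (CD37 -/- minus CD37 fl/fl) of the 11 members whose unadjusted p was under 0.05 in the FPKM fit (black diamonds), under other scalings and fits (filled symbols) and with 1 library left out (open triangles). No symbol crosses 0; TPM rescaling, in orange, shifts the genes to the right and brings Ssbp1 to -0.28 and Rfc2 to -0.34.

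Levels of different genes were compared per exon base, as depth-scaled reads per exon kilobase. Exon bases were those of all annotated transcripts of a gene, merged. A gene whose merged exons are longer than its mRNA therefore had a low level for its reads. In CD37 fl/fl LSCs the highest means were those of Rnaseh2c (112.5), Pcna (75.3), Tipin (71.85), Pold2 (69.0) and Rfc2 (61.5). The lowest were those of Fen1 (1.83), Pola1 (2.86), Pole (5.17) and Wdhd1 (5.345). In CD37 -/- LSCs Pcna had the highest level of the members, at 144, and Rfc2 was at 36.95. The catalytic subunits of polymerases delta and epsilon thus differed in level, at 45.95 and 5.17 in CD37 fl/fl LSCs and at 48.6 and 6.08 in CD37 -/- LSCs.

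Ratios of partner genes within a library do not depend on how libraries are scaled to each other. The ratio of Pold4 to Pold1, per exon base, was 0.534 and 0.511 in CD37 fl/fl against 0.287 and 0.218 in CD37 -/- LSCs, while that of Pold2 to Pold1 was 1.43 and 1.58 against 1.44 and 1.36. The ratio of Rfc2 to Rfc1 was 4.52 and 3.335 against 1.70 and 1.17. Within the loader, that of Rfc5 to Rfc1 was 1.69 and 1.565 against 1.20 and 0.9645. Both loader ratios were thus lower in both CD37 -/- libraries, as were those of Rfc3 and Rfc4 to Rfc1. Rfc1, by which all of them are divided, was itself higher, at 0.45 on the log2 scale, while Rfc5 was at 0.11. These ratios therefore hold the Rfc1 value again. Likewise, ratios of Pola2, Prim1 and Prim2 to Pola1, which was higher on reads, were lower in both CD37 -/- libraries. In relation to Pold1, Pold4 was lower in both, Pold2 overlapped, and Pold3 was lower by less, at 0.455 and 0.513 against 0.414 and 0.448.

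Pcna stood at 1.34 and 1.95 times Pold1 in CD37 fl/fl and at 2.74 and 3.21 times in CD37 -/- LSCs. Lig1 stood at 1.18 and 1.09 times Pold1, against 1.16 and 1.17 times, and these ranges overlapped. For RNase H2, the ratio of Rnaseh2b to Rnaseh2a was 0.420 and 0.340 against 0.606 and 0.822. The CAF-1 subunits had a Chaf1b to Chaf1a ratio of 1.87 and 1.71 against 1.155 and 0.767. Tipin stood at 11.99 and 11.34 times Timeless, against 8.76 and 5.96 times. Rnaseh2a, Chaf1a and Timeless, by which these partners are divided, were themselves at -0.89, 0.70 and 0.65 on the log2 scale. Rnaseh2b, Chaf1b and Tipin were at -0.06, -0.01 and 0.19. The ratios of these pairs therefore hold the values of their divisors again. Counting error of these ratios was at most 0.219 on the log2 scale, for Fen1 to Pold1. It covers read sampling alone and leaves out the spread between replicates, which was larger for Fen1 and Pcna. Fen1 stood at 0.0256 times Pold1 in CD37 fl/fl replicate 1 against 0.0543 times in replicate 2. For Pcna to Pold1, at 1.34 against 1.95 times, counting error was at most 0.039 on the log2 scale. No test was run on these ratios.

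**Figure D4:**
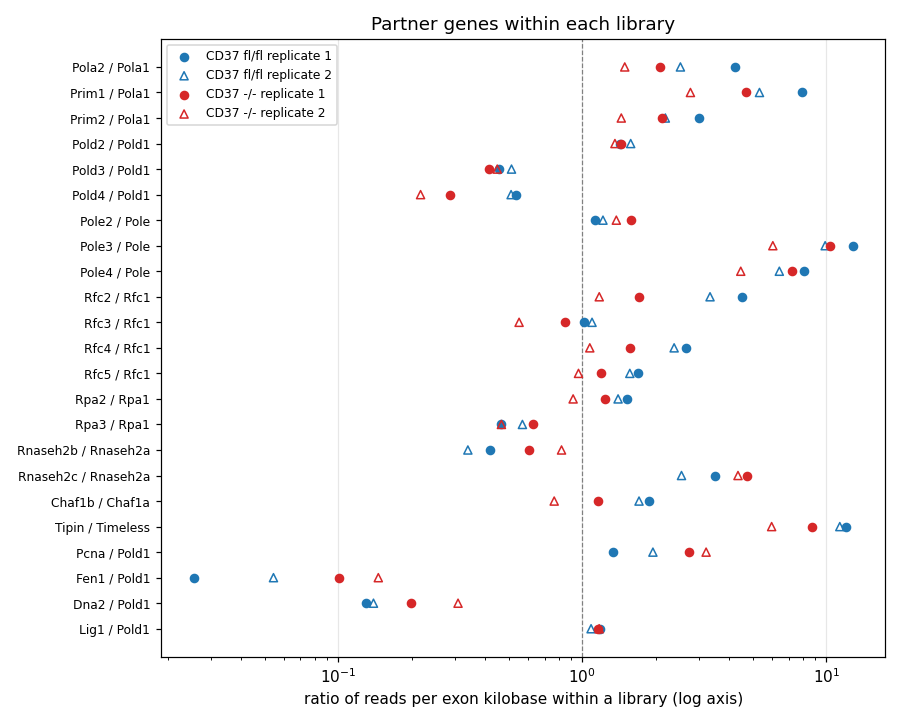
Ratio of each gene to a partner gene within a library, in reads per exon kilobase (log axis), blue for CD37 fl/fl and red for CD37 -/-. The Rfc2 to Rfc1 ratio lies between 3.335 and 4.52 in blue and between 1.17 and 1.70 in red, and the symbols of Pold2 to Pold1 and Lig1 to Pold1 overlap.

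Fold changes had a weak relation to exon length in these libraries. Exon length here counts the merged exon bases of all annotated transcripts of a gene, so it can exceed the length of the mRNA. Over all 6737 tested genes with a length, Spearman's rho between log2 fold change and exon length was 0.25, and over the 31 members it was 0.21; genes share the same 4 libraries and are no independent replicates. Over all tested genes the median was -0.15 on the log2 scale for exon lengths up to 1500 bases and 0.25 for those over 6000 bases. The 7 higher members had a median exon length of 6021 bases, the 4 lower ones of 4906 and the other 20 of 3740. Chaf1a, Timeless, Wdhd1 and Rfc1, with over 6000 bases each, lie in the class with the median of 0.25. Pcna and Fen1, at 2400 and 2422 bases, lie in a class with a median of -0.09, and Pold4, at 1164 bases, in that with -0.15. Rfc2 and Ssbp1 were lower at 6303 and 8360 bases. The part of exon length in the fold changes was not tested, and the length of the expressed transcripts was not measured.

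**Figure D5:**
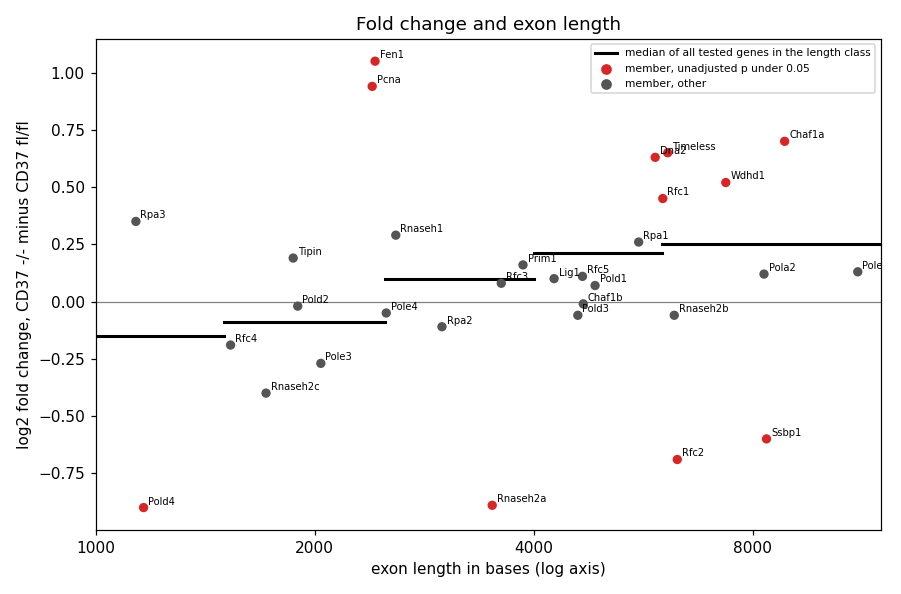
Log2 fold change (CD37 -/- minus CD37 fl/fl) of the 31 tested members against exon length in bases (log axis); red points had an unadjusted p under 0.05, and black bars are medians of all tested genes in 5 length classes, of which the first and last are open-ended. The bars climb from -0.15 to 0.25, while red points appear at both signs among long and short genes.

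Referring back to the promoter stretches, the E2F cores were not confined to genes that differed. Of the 8 higher members with a window (Pola1 included), 4 held a core (Chaf1a, Wdhd1 and Pola1 among them), as did 1 of the 3 lower ones (Rnaseh2a) and 13 of the other 17. Pcna, Rfc1 and Pold4 held CCAAT and no core in the searched window, and Dna2 and Timeless held neither.

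Other genes that act with the fork were taken from lists, of which 85 of 87 genes were analysed here and 68 were tested. At an unadjusted p under 0.05, 21 of the 68 were higher and 1 was lower in CD37 -/- LSCs, beside the 16.1% and 7.96% of all tested genes, and 0 passed by adjusted p. Of the 21, 4 averaged 1 FPKM or more in the CD37 -/- libraries alone and so had to differ (Polm, Dck, Top1 and Chek1, the last named after its values were seen). With all 6 listed genes that passed the filter in this way set aside, 17 of 62 were higher. The same step over all genes left 826 of 6242 higher. The median log2 fold change of the 68 was 0.27. In the limma-voom fit on reads, 32 of the 85 were higher and 1 lower at an unadjusted p under 0.05. Over all genes in that fit the shares were 19.3% and 6.08%. Counts and log2 fold changes of the lists below are from the FPKM fit unless reads are named. The counts stand beside the same 16.1% higher and 7.96% lower of all tested genes. Of 19 helicase and licensing genes 4 were higher and 0 lower; Mcm4, a helicase subunit, was at 1.21 and Cdc7, the kinase that fires origins, at 0.69, while Mcm6 was at -0.18. Clamp loading and unloading variants gave 0 of 4 in either direction, with Chtf18, a loader for sister chromatid cohesion, at 0.21. On reads, which held 7 of these variants, 2 were higher and 0 lower at an unadjusted p under 0.05 by limma-voom.

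Fork checkpoint genes gave 3 of 5 higher and 0 lower, with Topbp1 and Etaa1, both activators of ATR, at 1.13 and 0.50. The other was Chek1, which passed the filter through CD37 -/- alone and so had to differ. Of 6 translesion and repair polymerases, Polm was higher at 1.07 and Poll lower at -0.51. Both fill gaps in end joining, and Polm passed the filter as Chek1 did. Ligation, nick repair and topoisomerase genes gave 3 of 7 higher and 0 lower, with Top2a at 0.74. Among the 3 was Top1, at 0.73, which also passed through CD37 -/- alone. The mitochondrial replication list gave 1 of 6 higher, which was the mitochondrial polymerase Polg at 1.11, while its accessory subunit Polg2 had -0.35 and the helicase Twnk -0.13.

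Deoxynucleotide supply gave 2 of 8 higher and 0 lower, with Dck, a salvage kinase, at 1.25 and Rrm2, a subunit of ribonucleotide reductase, at 0.81. Dck passed the filter through CD37 -/- alone and so had to differ. Proliferation genes gave 7 of 13 higher and 0 lower, with Ccna2 at 0.90 and Plk1 at 0.87, while Birc5 had -0.59 and did not pass. Calls in the lower direction were 4 of 11 among the members (36.4%) and 538 of 1626 among all tested genes (33.1%), so the members were near the background, and were 1 of 22 among the other listed genes; these shares were not tested against each other.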

How the data were processed

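Poly(A) RNA of YFP+, c-kit+ LSCs was sequenced by the authors as strand-specific libraries, 2 per group. The authors deposited FPKM values, 1 column per library. The submitters' processing notes name fastp 0.20.1, STAR 2.7.7a, featureCounts 2.0.0, edgeR and the build mm39, with no roles; the strand setting was not given in the sources used here. Identifiers were matched to GENCODE M21 on GRCm38 (17045 of 17104), whose gene spans turned 16843 genes into whole reads in all 4 libraries.

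Genes averaging an FPKM of 1 or more were fitted on log2(FPKM + 1) with limma 3.58.1 (lmFit, eBayes with a trend, no block; R 4.3.3, statmod 1.5.0) and Benjamini-Hochberg adjustment over all tested genes. The scale understates changes of low genes. Recovered reads (mean of at least 10) were fitted by limma-voom as an alternative. Other alternatives were a pseudocount of 0.1, no filter, quantile, TPM and upper quartile scaling, other variance settings, the replicate block and each library left out. Code was tested on simulated data. Tables used Python 3.11.15 with scipy 1.17.1, numpy 2.4.6 and pandas 2.3.3, and figures matplotlib 3.10.9.

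The members and the gene lists were chosen with earlier results of these data known. Values per library are given for members with an unadjusted p under 0.05 in either fit and for the catalytic subunits. Those of Lig1, Chaf1b and Tipin, which act with members that differed, were added outside that rule. Of each other list, at most the 2 tested genes with the lowest p in each direction are named. Proteins were not analysed here. The promoter stretch of 1 member is not reported here. Reads of replicates differed beyond sampling noise: chi-square over degrees of freedom was 93.4 between the CD37 fl/fl libraries, 61.0 between the CD37 -/- libraries.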

Additional observations from a re-analysis of the deposited data

How the results depend on the processing

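The 11 members with an unadjusted p under 0.05 and Pola1 kept their sign under each alternative run, with the unadjusted p over 0.05 in 40 values and under it in 109. By adjusted p, 0 members passed under each alternative with all 4 libraries, where the replicate block was fitted on FPKM. The count over all genes was 46 with upper quartile scaling, 88 with robust estimation and 73 with the replicate block. Replicate numbers do not pair the libraries (correlation of deviations -0.04). Under the block 6 members were higher and 3 lower at an unadjusted p under 0.05. Over all genes, the unadjusted count was 2911 without a filter, 3309 on recovered reads and between 809 (without CD37 -/- replicate 2) and 1593 with a library left out. Higher members numbered 3 after quantile normalization, 4 with upper quartile scaling and between 1 and 5 with a library left out (1, Fen1, without CD37 fl/fl replicate 1 or CD37 -/- replicate 2); lower members numbered 2 after TPM rescaling and between 0 (without CD37 -/- replicate 2) and 4. Among members sharing under 10% of sequence or span with other genes, an alternative chosen after seeing the data, 4 of 22 tested were higher (18.2%) and 1 lower (4.55%), near the 16.1% and 7.96% of all tested genes. The causes were not tested.

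The median log2 fold change of the members was -0.03 (quantile normalization), 0.42 (TPM rescaling) and -0.06 (upper quartile scaling), where that of all tested genes was -0.02, 0.40 and -0.03, and it was between 0.01 and 0.15 with a library left out. Members with an unadjusted p over 0.05 changed sign as follows. Quantile normalization gave Pola2 -0.06, Prim1 -0.0, Pold2 0.0, Pole -0.08, Rfc3 -0.05 and Lig1 -0.03. Upper quartile scaling gave Pola2 -0.02, Pold1 -0.10, Rfc3 -0.08, Rfc5 -0.06 and Lig1 -0.06. TPM rescaling gave Pold2 0.34, Pold3 0.21, Pole3 0.10, Pole4 0.14, Rfc4 0.12, Rpa2 0.24, Rnaseh2b 0.14 and Chaf1b 0.28. With a library left out, Pold2 lay between -0.12 and 0.07, Pole4 between -0.12 and 0.01, Rfc3 between -0.11 and 0.27, Rpa2 between -0.24 and 0.01, Chaf1b between -0.12 and 0.09 and Tipin between -0.05 and 0.44. Depth limits Fen1, Pold4 and Rpa3 most, with at most 373, 470 and 484 reads in a library, and 2 libraries a group limit every value.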
